A study of Mus musculus with 4 samples.

Results

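The SR protein kinases were described here through 6 genes, chosen by symbol: the Cdc2-like kinases Clk1, Clk2, Clk3 and Clk4 and the SR protein kinases Srpk1 and Srpk2. They are 6 of the 32285 genes of the matrix, and each carries a unique Ensembl identifier. The cells were mESC (mouse embryonic stem cells) of the male line E14tg2a.4, and transcript 3′ ends were counted in single cells captured in droplets. The 2 groups were WT cells (n = 2 samples) and Srrm2 hKO cells (n = 2 samples), a line derived from E14tg2a.4 in which a gene trap truncates 1 allele of Srrm2. The Srrm2 hKO line is a single clone, so its other differences from WT cannot be told apart from the dose of Srrm2. All samples were grown in serum-free ESGRO medium with the self-renewal cytokine LIF for 24 h or 72 h per the labels, which do not say which length applied to which sample. The methods of the paper state a different growth time for these libraries.

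The deposited cells carry a library number from 1 to 4, and no source used here ties a library number to a labelled sample. WT and Srrm2 hKO were therefore not compared. Each library was described by its number, as 1 culture without a replicate, and no p-value was computed. Levels are counts of unique molecular identifiers (UMIs) per 1000000 UMIs (CPM) with exact 95% Poisson intervals, and folds have exact conditional 95% intervals. All intervals cover counting error only.

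SR proteins are splicing factors with a domain rich in arginine and serine dipeptides, and their location and activity depend on the phosphorylation of those serines. SRPK1 and SRPK2 are held mainly in the cytoplasm by chaperones, phosphorylate SR proteins there and thereby promote their import by the transportin TNPO3. CLK1 to CLK4 are nuclear kinases with dual specificity that phosphorylate SR proteins further and release them from nuclear speckles, the bodies of which SRRM2 and SON are the scaffold. Clk1 and Clk4 are known for transcripts that keep introns and stay in the nucleus until the kinase activity falls, when splicing is completed.

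The CLK proteins share a signature in the kinase domain that gave the family its other name, the LAMMER kinases. Its coding stretch is shown because it separates the CLK genes from the SRPK genes and from each other. Each stretch is 33 bases of the longest annotated coding sequence, lies in exon 11 and was read 5′ to 3′ from the GENCODE M21 transcripts, which are built on GRCm38. Capitals mark the 6 codons of the signature.
Clk1: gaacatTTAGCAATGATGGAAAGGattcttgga
Clk2: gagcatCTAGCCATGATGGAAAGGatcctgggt
Clk3: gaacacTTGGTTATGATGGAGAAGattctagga
Clk4: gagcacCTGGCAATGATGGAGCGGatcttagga
The stretches lie at chr1:58412979-58413011 on the minus strand for Clk1, at chr3:89175407-89175439 on the plus strand for Clk2, at chr9:57752147-57752179 on the minus strand for Clk3 and at chr11:51280373-51280405 on the plus strand for Clk4. The signature was spelled by the codons of Clk1, Clk2 and Clk4, and 2 of the 6 codons of Clk3 gave another residue. Clk1 and Clk2 were identical at 27 of 33 bases, the most of any pair, and Clk2 and Clk3 at 22 of 33, the fewest. No such stretch was found in the coding sequences of Srpk1 and Srpk2, of 1944 and 2046 bases.

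In GRCm38, Clk1 spans chr1:58410189-58424066 on the minus strand and no other annotated gene overlaps it. Clk2 spans chr3:89164795-89176921 on the plus strand, and Clk3 chr9:57750624-57765860 on the minus strand, where Edc3 overlaps it on the other strand. Clk4 spans chr11:51261730-51281766 on the plus strand, Srpk1 chr17:28587648-28622709 on the minus strand and Srpk2 chr5:23503264-23684617 on the minus strand. Clk4 overlaps the small RNA gene Gm25082 on its own strand and BC049762 on the other, and Srpk2 overlaps Gm24009 and Gm43566 on its own strand and Kmt2e on the other. The longest identical run between transcripts of 2 of the 6 genes was 49 bases, for Clk1 and Clk4. The annotation lists 7 retained-intron transcripts of 13 for Clk1, 7 of 14 for Clk4 and 6 of 13 for Srpk1. It lists 4 of 11 for Clk2, 4 of 9 for Clk3 and 3 of 10 for Srpk2. Of 21951 protein-coding genes, 1.46% have at least 7 such transcripts, the count of Clk1 and Clk4, and the median gene has 0. The gene counts do not tell spliced transcripts from those with a retained intron.

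The 4 libraries held 9535 to 11736 barcodes and 171905560 to 211460241 UMIs each. The study's stated cell filter, a UMI count and a gene count of at least the library's mean minus 1 SD and a mitochondrial share of at most 10%, kept 8118, 8514, 7893 and 7464 cells in libraries 1 to 4. Their median UMI counts were 18378, 21897.5, 19405 and 21437.5. Of 40980 barcode sequences, 160 (0.390%) occurred in more than 1 library. The naive pluripotency gene Zfp42 was at 359 to 535 CPM in every library, but it was the most even of 10 naive genes. Of these 10, 9 differed at least 1.5-fold between the highest and lowest library, with a median of 2.48-fold. Tbx3 differed most, at 75.2, 10.9, 35.2 and 3.76 CPM in libraries 1 to 4. Of 5 fibroblast genes, Dcn and Lum were at 0.0812 CPM or less, with Lum at 0 counts in libraries 1, 2 and 4, whereas the collagen genes Col1a1, Col1a2 and Col3a1 were at 3.90, 5.11 and 1.29 CPM in library 3 and at 0.942 CPM or less in the others. The libraries differed in cell state: the formative gene Dnmt3b was at 79.5, 393, 146 and 586 CPM and the keratin gene Krt8 at 21.1, 12.8, 238 and 71.7 CPM in libraries 1 to 4. Srrm2 itself was at 387, 533, 238 and 356 CPM.

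Between libraries, Srpk1 was the member that differed most, while the 4 Clk genes and Srpk2 lay within 1.32-fold. Its level was 151 CPM (149 to 153), 251 CPM (248 to 253), 176 CPM (174 to 178) and 240 CPM (238 to 243) in libraries 1 to 4. Libraries 2 and 4 were thus above libraries 1 and 3, and every step of the order 2, 4, 3, 1 exceeded counting error. The highest library was 1.66-fold (1.63 to 1.68) above the lowest. Srpk1 was the 1 of 6 members past 1.5-fold, the size that was counted throughout. Of 14525 genes with at least 200 counts over the libraries, 51.7% passed 1.5-fold and the median gene differed 1.52-fold, against a median of 1.23-fold over the 6 members. The order 2, 4, 3, 1 of Srpk1 was found in 9.06% of these genes. Without library 1 the range of Srpk1 was 1.43-fold. With levels scaled by the median gene in place of total UMIs, the range was 1.504-fold for Srpk1, just past 1.5-fold, and 1.17-fold for Clk2. That scaling shifted the libraries against each other by up to 0.17 on the log2 scale. The orders of libraries are given for total UMIs only, and small steps in them may depend on the scaling.

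Srpk2, the close paralog of Srpk1, did not share its spread. Its level was 66.8, 70.0, 61.5 and 73.0 CPM in libraries 1 to 4, a range of 1.19-fold (1.16 to 1.22) with the order 4, 2, 1, 3. Clk1 was at 51.5, 59.7, 45.3 and 49.5 CPM in the same libraries, a range of 1.32-fold (1.28 to 1.35). Its order of libraries, 2, 1, 4, 3, was that of Srrm2, and also that of cell cycle genes such as Top2a and Mcm6. In all, 3.33% of the genes tested had it. For Clk1 library 1 was only 1.04-fold (1.01 to 1.07) above library 4, and any of the 6 members could have matched, so the shared order is a description only.

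Clk2 was at 22.9, 28.1, 23.6 and 29.1 CPM in libraries 1 to 4, 1.27-fold (1.22 to 1.33) from lowest to highest. Libraries 4 and 2 did not differ beyond counting error for Clk2, nor did libraries 3 and 1. Clk3 was the most even member, at 17.6, 17.8, 18.5 and 19.2 CPM, a range of 1.09-fold (1.04 to 1.15) whose interval excluded 1, and no neighbours in its order differed beyond counting error. Clk4 was at 18.1, 17.8, 19.1 and 20.2 CPM, a range of 1.13-fold (1.08 to 1.19), with libraries 1 and 2 alike within counting error. Of the proteins the kinases act on or with, 5 of 15 SR substrates, 5 of 11 related kinases, 2 of 7 phosphatase genes and 0 of 5 import and chaperone genes passed 1.5-fold, with medians of 1.38, 1.45, 1.35 and 1.20-fold. Among them Srrm2 had the widest range of the SR substrates and Prpf4b, a kinase of the spliceosome, that of the related kinases. Srsf12, Srpk3 and Dyrk4 had too few counts to be tested.

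**Figure D1:**
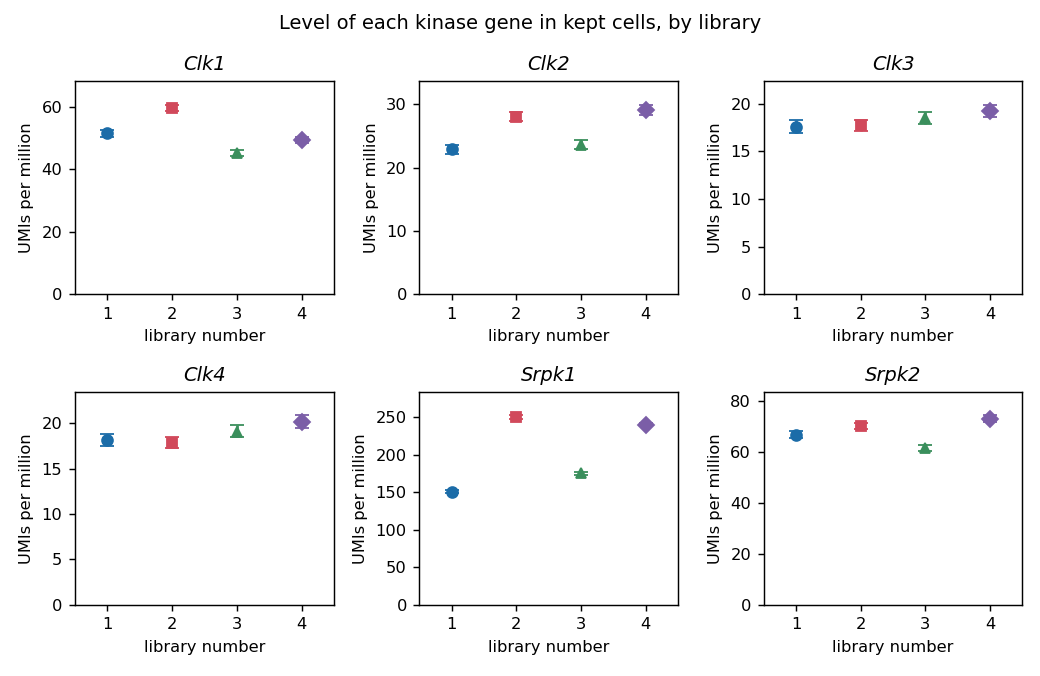
Level of each of the 6 kinase genes in kept cells (y axis, CPM, from 0) in libraries 1 to 4 (x axis), with exact 95% Poisson intervals as bars. Srpk1 runs from 151 to 251 CPM, whereas Clk3 stays between 17.6 and 19.2 CPM.

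The share of cells in which each transcript was found was compared at equal depth. After each kept cell was thinned to 5000 UMIs, a UMI of Srpk1 was found in 52.2, 69.5, 56.5 and 68.7% of cells of libraries 1 to 4. Clk1 was found in 22.9, 26.1, 20.1 and 21.6% of cells and Srpk2 in 28.2, 28.8, 25.5 and 30.1%. Clk2, Clk3 and Clk4 were each found in 8.38 to 13.3% of cells. The variance over cells divided by the mean was 1.00 to 1.07 for every member and library, where 1 is the value of a Poisson distribution, but at means of 0.0883 to 1.23 UMIs this ratio can lie near 1 also where cells differ. For Srpk1 it was 1.05 to 1.13 at 10000 UMIs and 1.65 to 2.14 without thinning, where cells also differ in depth. For Srpk1 in library 2 the Poisson share of the same mean was 70.8%, against the 69.5% found. None of the 6 genes had a UMI in 19.5, 11.5, 19.4 and 12.2% of cells of libraries 1 to 4, and 1 cell in all had a UMI of each. At full depth the shares were 91.7 to 98.2% for Srpk1, 59.7 to 71.3% for Clk1 and 29.5 to 33.7% for Clk3. No cell type that should lack these genes was at hand, so no background share is given.

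The barcodes that the cell filter removes were compared with the kept cells. In barcodes of low depth with over 10% mitochondrial UMIs, Clk1 and Clk4 took about 2 to 3 times the share of nuclear-encoded UMIs that they took in kept cells of the same library. Srpk1, by contrast, was at about the same share. These barcodes numbered 969, 2064, 1106 and 1595 in libraries 1 to 4, with median UMI counts of 2447, 3195.5, 2917.5 and 2633 and median mitochondrial shares of 30.6, 19.8, 24.2 and 19.0%. Since the class was cut on the mitochondrial share, levels given for low-depth or high-mitochondrial barcodes, and for kept cells beside them, are per 1000000 UMIs of genes that are not encoded in mitochondria.

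Clk1 was at 122, 124, 119 and 138 CPM in these barcodes of libraries 1 to 4, against 54.4, 62.2, 47.4 and 51.2 CPM in kept cells. The folds were 2.24 (1.97 to 2.55), 2.00 (1.84 to 2.16), 2.499 (2.22 to 2.80) and 2.69 (2.44 to 2.95). Clk4, which had the longest identical run with Clk1, was at 42.6, 49.6, 46.7 and 62.4 CPM against 19.1, 18.6, 19.96 and 20.9 CPM. Its folds were 2.23 (1.77 to 2.76), 2.67 (2.34 to 3.03), 2.34 (1.94 to 2.81) and 2.99 (2.59 to 3.43). The 2 classes did not overlap between libraries for either gene or for Srpk2: the lowest value in the low-depth barcodes was above the highest in kept cells. These 3 of 6 members stand beside 37% of all genes tested with such a separation upward and 6.64% with one downward. Clk1 and Clk4 were the 2 of 6 members at least 1.5-fold higher in every library. The same was true of 24.5% of the 11136 genes tested, while 2.09% were lower by that size in every library, and the median gene was 1.30-fold higher. The median of the 6 members was 1.27-fold, near that of all genes.

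Srpk2 was at 99.1, 99.6, 86.5 and 98.5 CPM in these barcodes, 1.41, 1.37, 1.35 and 1.30 times its level in kept cells, close to the median gene. Clk2 was at 26.0, 35.5, 32.4 and 35.2 CPM, with folds of 1.08 to 1.31, and Clk3 at 17.02, 23.8, 19.3 and 22.6 CPM, with folds of 0.92 to 1.28. Srpk1 was at 156, 245, 167 and 233 CPM, with folds of 0.98, 0.94, 0.91 and 0.94. The intervals for Srpk1 excluded 1 in libraries 2 and 3.

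These folds depend on what the totals are set against. Scaling by the median gene in place of total UMIs moved every fold here by -0.51 to -0.38 on the log2 scale. The folds then were 1.53 to 1.97 for Clk1 and 1.56 to 2.19 for Clk4, 0.95 to 1.05 for Srpk2, 0.75 to 0.98 for Clk2, 0.64 to 0.98 for Clk3 and 0.68 to 0.72 for Srpk1. Clk1 and Clk4 thus stayed past 1.5-fold in every library under both scalings, whereas Clk2 turned from above to below 1. In these sums of barcodes a higher share of 1 RNA and a lower share of the others cannot be told apart.

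Other RNAs differed in the same barcodes. The long non-coding RNA Malat1, which stays in the nucleus, was at 18192, 17576, 16915 and 23510 CPM against 4317, 4389, 4423 and 5342 CPM in kept cells, and the 3 nuclear RNAs listed (Malat1, Neat1 and Kcnq1ot1) were all at least 1.5-fold higher in every library, with a median of 3.71-fold. Of 5 transcripts of abundant cytoplasmic proteins, 3 were at least 1.5-fold lower in every library, among them Gapdh at 0.48 to 0.52 of its level in kept cells, and the median was 0.63-fold. Of 15 SR substrates, 3 were at least 1.5-fold higher in every library and none lower, with a median of 1.47-fold, a count no greater than the 24.5% of all genes would give. Tra2a, a regulator of exon choice, led them at 2.26 to 2.496-fold, followed by Son at 1.97 to 2.63-fold. Of 11 related kinases, 6 were higher and none lower, with a median of 1.72-fold, led by Hipk3 at 2.13 to 2.73-fold and Hipk1 at 1.69 to 2.33-fold. None of 7 phosphatase genes and none of 5 import and chaperone genes passed 1.5-fold in either direction, with medians of 0.98 and 1.05-fold. The part of the nuclear RNAs in the values of Clk1 and Clk4 was not tested. As for cell types, the summed naive panel was 1.05 to 1.51 times and the summed keratin and contractile panel 0.14 to 0.51 times its level in kept cells.

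**Figure D2:**
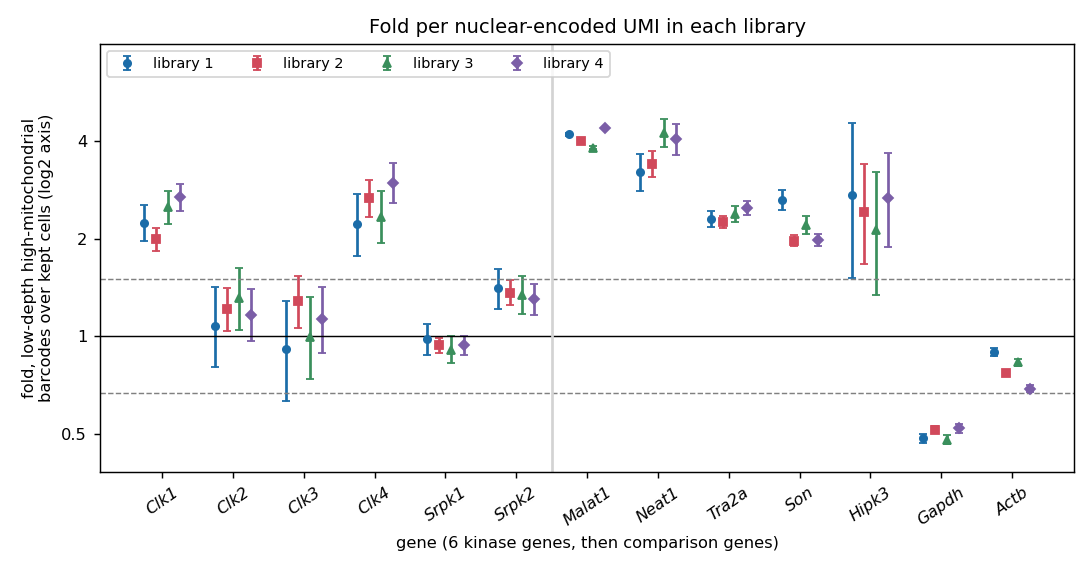
Fold of the level per nuclear-encoded UMI in low-depth barcodes with over 10% mitochondrial UMIs over kept cells (y axis, log2 scale), for the 6 kinase genes and 7 comparison genes (x axis), in each library, with 95% intervals that cover counting error. Dashed lines mark 1.5-fold in either direction. Clk1 and Clk4 lie between 2.00 and 2.99 in all 4 libraries, while Srpk1 lies between 0.91 and 0.98.

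Over all barcodes, Clk1 and Clk4 were higher between 10 and 40% mitochondrial UMIs than in each of the 3 bins below 10%, although for Clk4 in library 1 the intervals of the lowest bin and of the 10 to 20% bin overlapped. Depth differed over the bins too: median UMI counts were 19014 to 22069.5 with 2.5 to 5%, 3489 to 5392 with 10 to 20% and 2698 to 3113 with 20 to 40%. The part of depth in these values was not tested. With at most 2.5%, Clk1 was at 52.2, 59.6, 45.5 and 44.3 CPM and Clk4 at 25.7 (20.9 to 31.3), 18.1, 19.2 and 19.7 CPM in libraries 1 to 4. Clk1 was at 51.8, 61.5, 46.3 and 52.8 CPM in barcodes with 2.5 to 5% mitochondrial UMIs in libraries 1 to 4, at 76.7, 114, 84.0 and 120 CPM with 10 to 20%, and at 130, 127, 130 and 146 CPM with 20 to 40%. Clk4 was at 18.01, 18.6, 20.3 and 20.9 CPM, at 29.4, 43.8, 39.6 and 56.4 CPM and at 54.0, 57.5, 48.2 and 61.8 CPM in the same 3 bins. Malat1 was at 4201 to 5486 CPM in the first of these bins and at 19690 to 24125 CPM in the last. Srpk1 was at 164, 264, 186 and 255 CPM with 2.5 to 5% and at 170, 248, 183 and 236 CPM with 20 to 40%, so that its order of libraries 2, 4, 3, 1 was kept in both bins. With 20 to 40%, however, the intervals of libraries 2 and 4 overlapped, as did those of libraries 3 and 1. Above 40%, Clk1 was at 149 CPM (103 to 208) in library 1 and 147 CPM (91.3 to 225) in library 3, on 34 and 21 counts, and Malat1 at 18478 and 17388 CPM. In library 2, Clk1 was at 62.9 CPM (23.1 to 137) on 6 counts, an interval that overlaps those of libraries 1 and 3, and in library 4 it had 0 counts, with an upper bound of 75.9 CPM. Malat1 was at 4709 and 3209 CPM in libraries 2 and 4, below its level in their 20 to 40% bin.

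**Figure D3:**
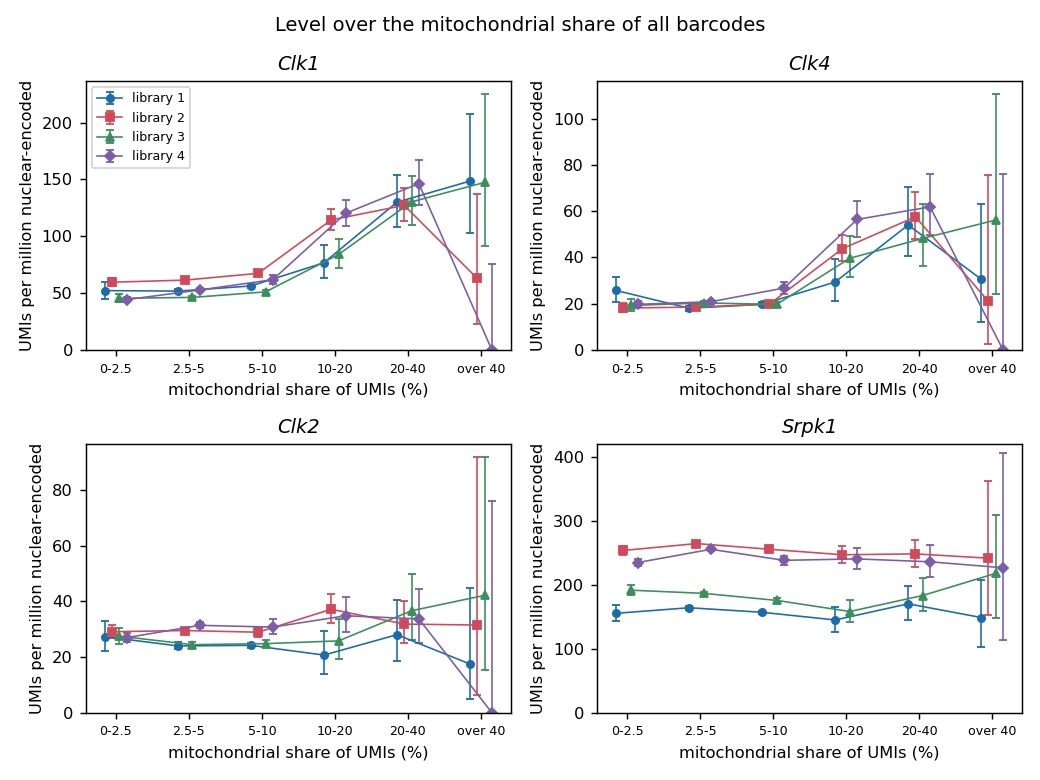
Level of Clk1, Clk4, Clk2 and Srpk1 per 1000000 nuclear-encoded UMIs (y axes, from 0) over bins of the mitochondrial share of UMIs of all barcodes (x axes), a line for each library, with exact 95% Poisson intervals. Clk1 stands at 127 to 146 CPM in the 20 to 40% bin, against 46.3 to 61.5 CPM in the 2.5 to 5% bin, bins that also differ in depth.

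Barcodes of sufficient depth with over 10% mitochondrial UMIs were few (59, 377, 85 and 275) and split by library. Clk1 was at 105 CPM in libraries 2 and 4 but at 47.9 and 46.9 CPM in libraries 1 and 3, where it rested on 35 and 36 counts. Malat1 was at 15060 and 21322 CPM in libraries 2 and 4 and at 7890 and 9488 CPM in libraries 1 and 3. Clk4 was at 27.4, 43.4, 31.3 and 47.8 CPM in libraries 1 to 4.

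In low-depth barcodes with at most 10% mitochondrial UMIs (389, 781, 613 and 840, compared with the same kept cells), the same 2 genes were again the highest by fold, but less evenly. Clk1 was at 77.5, 106, 71.2 and 97.6 CPM, with folds of 1.42, 1.71, 1.502 and 1.90, and Clk4 at 34.8, 43.0, 27.1 and 49.7 CPM, with folds of 1.82, 2.31, 1.36 and 2.38. Every interval of these 8 folds excluded 1. Srpk1 was at 125, 253, 154 and 205 CPM, with folds of 0.78, 0.97, 0.84 and 0.82. The intervals for Clk2 and Clk3 included 1 in every library. Clk1 in library 1 and Clk4 in library 3 were under 1.5-fold, so that 0 of 6 members passed in every library, against 1.66% of 11109 genes higher and 0.045% lower. Without library 1, Clk1 passed, and without library 3, Clk4 passed. Malat1 was 1.75, 3.57, 1.95 and 3.39-fold higher here, and libraries 2 and 4 had the shallower barcodes, with median UMI counts of 1235 and 1357 against 3427 and 3516. The summed two-cell panel was 72.2-fold higher in library 1 and 31.9-fold in library 3, and the keratin and contractile panel 7.15-fold in library 1. The two-cell folds rest on few counts: none of its 7 genes could be tested, and none had over 52 counts in the kept cells of any library. Of 6 keratin and contractile genes tested, 1 passed 1.5-fold upward in every library, with a median of 1.46-fold.

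Whether the kinases also vary with Malat1 among kept cells was asked after the pattern above had been seen. Kept cells of each library were ranked by the share of Malat1 in their UMIs, and the top tertile was compared with the bottom one, with Malat1 left out of the totals. Clk2 was the highest by fold here, at 27.3, 33.9, 27.7 and 36.1 CPM in the top tertile against 19.2, 21.6, 19.1 and 22.5 CPM in the bottom one. Its folds were 1.42 (1.31 to 1.54), 1.57 (1.47 to 1.68), 1.45 (1.34 to 1.57) and 1.61 (1.498 to 1.72). Clk4 had folds of 1.39, 1.19, 1.38 and 1.46 and Clk1 of 1.36, 1.21, 1.29 and 1.29, with Clk1 above Clk4 in library 2. Clk3 (1.07 to 1.18), Srpk2 (1.15 to 1.18) and Srpk1 (1.01 to 1.05) differed less. None of the 6 passed 1.5-fold in every library, against 3.73% of 10412 genes higher and 0% lower. The median gene was 1.10-fold higher, and scaling by the median gene moved the folds by -0.19 to -0.13 on the log2 scale. Clk2 was then at 1.253 to 1.43-fold, Clk1 at 1.11 to 1.20 and Clk4 at 1.08 to 1.27, whereas Srpk1 turned to 0.90 to 0.93 and Clk3 to 0.97 to 1.03. The summed G2/M panel was 1.24 to 1.34 times higher in the top tertile, and the formative panel 1.149, 1.27, 1.24 and 1.245 times, parts that were not tested. The keratin and contractile panel summed to 70.6 to 1326 CPM in the top tertile and 37.0 to 909 CPM in the bottom one, 2.03, 1.91, 1.46 and 2.51 times, and all 5 of its genes that had enough counts were higher in every library. Without the keratin-high cells, Clk2 was at 1.43, 1.57, 1.47 and 1.63-fold, Clk4 at 1.40, 1.18, 1.41 and 1.43 and Clk1 at 1.37, 1.21, 1.30 and 1.31.

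Across pluripotency states, Clk1 and Srpk1 differed in opposite directions in each library, by small amounts. Of the 10443 genes tested, 4403 were higher and 2100 lower in all 4 libraries. Kept cells of each library were ranked by their UMIs of naive genes over those of naive and formative genes. The lowest tertile (formative) was compared with the highest (naive). A tertile is a range of the ranking and not a cell type. Clk1 was at 47.2, 54.2, 41.7 and 44.5 CPM in the formative tertile and at 54.7, 61.3, 47.0 and 55.6 CPM in the naive one, with folds of 0.86, 0.88, 0.89 and 0.80 whose intervals all excluded 1. Srpk1 was at 161, 271, 190 and 259 CPM in the formative tertile and at 144, 233, 161 and 222 CPM in the naive one, with folds of 1.12, 1.16, 1.18 and 1.16 whose intervals all excluded 1. Scaling by the median gene moved the folds by -0.14 to -0.08 on the log2 scale and left both directions, at 0.74 to 0.82 for Clk1 and 1.06 to 1.08 for Srpk1. Clk2, Clk3, Clk4 and Srpk2 were higher in some libraries and lower in others. None of the 6 passed 1.5-fold, against 3.82% of 10443 genes higher and 0.354% lower. The difference of Srpk1 between tertiles within a library was smaller than its range between libraries. Since cells were ranked within each library, tertiles of different libraries are not on a common scale of state. The part of cell state in the range between libraries was not tested. The keratin and contractile panel summed to 119 to 1958 CPM in the formative tertile and 25.1 to 296 CPM in the naive one, 6.65, 4.76, 6.61 and 1.80 times, and 4 of the 6 genes tested from it passed 1.5-fold upward. Without the keratin-high cells, Clk1 was at 0.87, 0.89, 0.92 and 0.81-fold and Srpk1 at 1.12, 1.16, 1.24 and 1.16-fold.

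Cells with at least 5 UMIs of the keratin and contractile panel after thinning (71, 50, 756 and 387 cells in libraries 1 to 4) had more Clk3 and less Clk1, Clk2 and Srpk2 than the other kept cells. Clk3 was at 23.8, 27.0, 25.2 and 29.1 CPM against 17.5, 17.7, 17.5 and 18.6 CPM, with folds of 1.36 (1.01 to 1.78), 1.52 (1.05 to 2.13), 1.44 (1.31 to 1.58) and 1.56 (1.38 to 1.76). The 2 classes did not overlap between libraries for Clk3, the member that was most even between libraries as a whole, as was so for 20.7% of all genes tested upward and 15.8% downward. Clk1 had folds of 0.64, 0.86, 0.84 and 0.80, Clk2 of 0.90, 0.68, 0.85 and 0.84, and Srpk2 of 0.66, 0.84, 0.92 and 0.85. For Clk1 the interval of library 2 included 1, for Clk2 those of libraries 1 and 2, and for Srpk2 that of library 2. Clk4 was 1.65-fold (1.16 to 2.28) higher in library 2, on 37 counts, and at 0.86 to 1.03-fold in the others, and Srpk1 was between 0.88 and 1.05-fold.

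None of the 6 genes passed 1.5-fold in every library in keratin-high cells, against 10.6% of 11099 genes higher and 7.18% lower. Scaling by the median gene left Clk3 at 1.20 to 1.46-fold. Of 15 SR substrates, 11 were lower in all 4 libraries and 1 was higher, but none passed 1.5-fold. Of the 11099 genes tested, 3409 were lower and 3701 higher in all 4 libraries. Tra2a was at 0.55 to 0.77 of its level in other cells. Hipk3 at 1.73 to 3.62-fold was the 1 of 11 related kinases, and Ppp2cb, a catalytic subunit of protein phosphatase 2A, at 1.65 to 2.55-fold the 1 of 7 phosphatase genes that passed. The cut at 5 UMIs was met exactly by 6, 4, 44 and 65 cells. The keratin-high cells had median UMI counts of 22276.5 to 26665 against 18345 to 21896, and no doublets were removed. In them the summed naive panel was at 0.19 to 0.41, the fibroblast panel at 41.2 to 236 times and the trophectoderm panel at 20.6 to 60.2 times the level of other cells. Of the S and G2/M panels of 14 genes each that are used below, 11 and 9 genes were lower in all 4 libraries and 0 higher. The medians were 0.74 and 0.85-fold. The part of these in the value of Clk3 was not tested.

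Cells with at least 3 UMIs of the two-cell panel numbered 16 over all libraries and were pooled. Srpk1 was at 81.9 CPM, on 20 counts, against 207 CPM in other kept cells, a fold of 0.40 (0.24 to 0.61). Clk1 was at 81.9 CPM against 51.8 CPM, also on 20 counts, with a fold of 1.58 (0.97 to 2.44). The other 4 genes rested on 3 to 19 counts with intervals that included 1, so no difference was detectable at this depth. Past 1.5-fold were Clk1 and Clk3 upward and Srpk1, Clk2 and Clk4 downward, in a comparison in which 17.1% of 14525 genes were past 1.5-fold higher and 48% past it lower. The class held 244052 UMIs, so a gene near the limit of 200 counts over all cells is lower whenever it has no counts there. The downward share was 54.4% with a limit of 50 counts and 67.6% with none, so it does not serve as a background for the members. Scaling by the median gene ended the calls of Clk2 (0.67-fold) and Clk4 (0.70-fold), and with a limit of 2 UMIs of the two-cell panel Clk4 turned from 0.65 to 1.14-fold. The keratin and contractile panel summed to 1512 CPM in the two-cell-like cells against 343 CPM, with 7 of 7 genes past 1.5-fold higher, and the formative panel to 159.8 against 652 CPM, with 10 of 10 past it lower. Of the 3 nuclear RNAs, 2 were past 1.5-fold lower, with a median of 0.47-fold. The fibroblast and trophectoderm panels had no counts in these cells, which at their low levels does not show a difference. The part of the panels named here in the values of the kinases was not tested.

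With the cell cycle, Srpk2 was higher in G2/M-high cells of all 4 libraries, and had the highest fold of the 6 genes in libraries 1 to 3. Kept cells of each library were ranked by the share of a G2/M panel of 14 genes, and the top and bottom tertiles were compared. The top tertile was deeper in every library, with median UMI counts of 21939 to 25949.5 against 15829.5 to 19169.5. The part of depth in these values was not tested. Srpk2 was at 78.0, 77.5, 69.1 and 79.2 CPM in the top tertile of libraries 1 to 4 and at 54.3, 62.6, 54.3 and 66.4 CPM in the bottom one. The folds were 1.44 (1.37 to 1.51), 1.24 (1.19 to 1.29), 1.27 (1.21 to 1.34) and 1.19 (1.14 to 1.247), and the tertiles did not overlap between libraries, a separation found upward for 4.62% of the genes tested. Clk4 was lower in all 4 libraries, with folds of 0.91, 0.83, 0.90 and 0.88 whose intervals excluded 1, and its tertiles did not overlap either, as downward for 1.29% of the genes. Clk2 had folds of 0.95, 1.148, 1.05 and 1.22, above Srpk2 in library 4, and Clk3 of 1.06, 1.13, 1.06 and 1.01. Clk1 was at 0.86 to 1.00 and Srpk1 at 1.02 to 1.11 of the bottom tertile. None of the 6 passed 1.5-fold, against 0.846% of 10397 genes higher and 0.173% lower. The keratin and contractile panel summed to 39.2 to 477 CPM in the top tertile and 88.6 to 1984 CPM in the bottom one, 0.45, 0.44, 0.24 and 0.46 times, and all 5 of its genes that had enough counts were lower in every library. Without the keratin-high cells, the folds of Srpk2 were 1.43, 1.24, 1.33 and 1.19 and those of Clk4 0.91, 0.84, 0.86 and 0.87.

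The S panel gave the reverse order for Srpk2. In the tertile with the highest share of the 14 S genes, Srpk2 had folds of 0.85, 0.93, 0.90 and 0.96 and Clk3 of 0.90, 0.91, 0.84 and 0.96. Clk1 was higher in all 4 libraries, with folds of 1.15, 1.16, 1.10 and 1.16, as were Clk2 (1.11, 1.13, 1.24 and 1.10), Srpk1 (1.11, 1.12, 1.19 and 1.13) and Clk4 (1.10, 1.15, 1.07 and 1.12). All intervals excluded 1 except those of Clk3 in library 4 and Clk4 in library 3. Of 15 SR substrates, 13 were higher in all 4 libraries, with a median of 1.12-fold, the same as that of the 6 kinases, while the median gene was at 1.01-fold and 3033 of the 10386 genes tested were higher and 1901 lower in all 4 libraries. None of these and none of the 6 kinases passed 1.5-fold, against 0.279% of 10386 genes higher and 0.27% lower. The summed G2/M panel was at 0.57 to 0.77 in the S-high tertile, so the 2 rankings share cells and are not independent. The S-high tertile was shallower in every library, with median UMI counts of 16792 to 19989.5 against 19948 to 23702, a part not tested either. The keratin and contractile panel summed to 30.4 to 158 CPM in the S-high tertile and 82.1 to 2276 CPM in the S-low one, 0.23, 0.39, 0.07 and 0.20 times, and all 6 of its genes that had enough counts were lower in every library. Without the keratin-high cells, Clk1 was at 1.07 to 1.16-fold, Clk2 at 1.08 to 1.21, Clk4 at 1.07 to 1.16, Srpk1 at 1.11 to 1.16 and Srpk2 at 0.85 to 0.94, whereas Clk3 was at 0.91 to 0.92 in libraries 1 to 3 and at 1.00 in library 4.

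**Figure D4:**
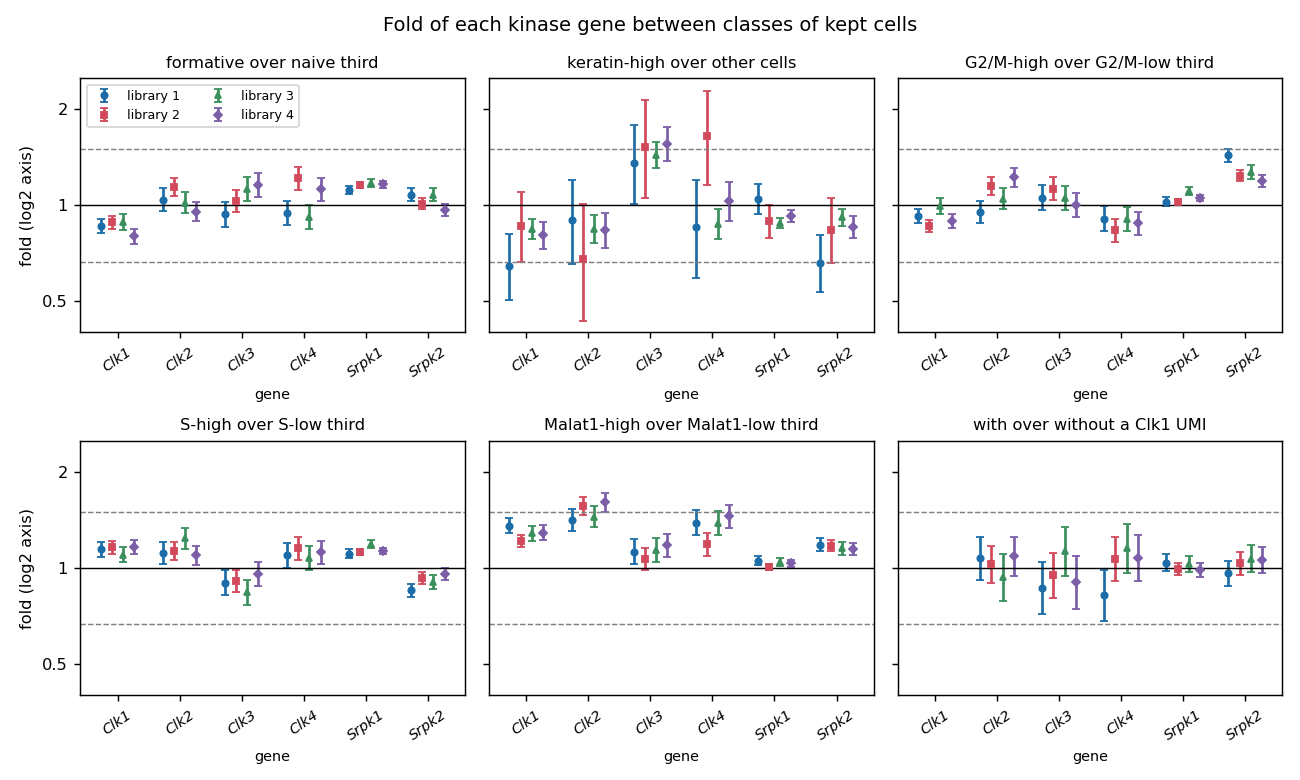
Fold of each kinase gene (x axes) between classes of kept cells (y axes, log2 scale) for 6 comparisons, in each library, with 95% intervals that cover counting error; dashed lines mark 1.5-fold. Clk3 stands at 1.36 to 1.56 in keratin-high cells, Srpk2 at 1.19 to 1.44 in G2/M-high cells and Clk2 at 1.42 to 1.61 in Malat1-high cells.

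Cells with a Clk1 UMI after thinning to 5000 UMIs (1861, 2222, 1590 and 1610) were compared with those without, with Clk1 left out of the totals. The folds were 0.94 to 1.09 for Clk2, 0.87 to 1.13 for Clk3, 0.82 to 1.15 for Clk4, 0.99 to 1.04 for Srpk1 and 0.96 to 1.07 for Srpk2. The interval excluded 1 in 1 of the 20 comparisons, for Clk4 in library 1 at 0.82 (0.68 to 0.98). None passed 1.5-fold, against 0% of 8377 genes higher and 0% lower, so this count does not bear on whether the kinases vary together from cell to cell. The 3 nuclear RNAs summed were 1.09 to 1.17 times higher in cells with a Clk1 UMI.

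The genes whose level was most like that of each kinase were sought over 12 sums, the 3 pluripotency tertiles of each library, among about 5300 genes at 20 CPM or more. The 12 points share 4 libraries, so Pearson's r is given as a description. For Srpk1 these were Nsun2 and Sumo3 (r = 0.998 each) and Eif3b (0.995), and for Clk1 they were Ppp6r3 (0.976), Zbtb11 (0.966) and Echdc2 (0.960). Bcor (0.977), Pfas (0.973) and Nudc (0.971) were nearest to Clk2, and Sh3d19 (0.970), Ero1l (0.952) and Arl6ip6 (0.946) to Srpk2. Nearest to Clk3 were Crb3 (0.928), Igf2bp3 (0.923) and Malat1 (0.902), and to Clk4 Btbd2 (0.862), Elovl6 (0.847) and Pcyt2 (0.834). Among the kinases themselves, Clk2 and Srpk1 were the most alike (0.913). Clk1 and Clk4, which were both higher in the low-depth barcodes, ran against each other here (-0.59), as did Clk1 and Clk3 (-0.58). Clk4 ran only from 16.5 to 21.7 CPM over the 12 sums.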

How the data were processed

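The authors aligned 10x 3′ v3 libraries with Cell Ranger (version 6.1.2 per the submitters' processing notes) to mm10 and its supplied annotation and joined 4 libraries with the aggregation step at default settings, which subsamples reads to even out depth. The deposited values are raw UMI counts per gene and barcode, with exonic reads counted. Reads were not reprocessed, so near-identical transcripts stay as the authors counted them.

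Counts were summed per library and class of barcodes with Python 3.11.15, numpy 2.4.6, scipy 1.17.1 and pandas 2.3.3, and sequences were read with Biopython. A gene was counted when all libraries differed by at least 1.5-fold one way and each held at least 200 of its counts over the 2 classes. Between libraries, the highest was set over the lowest, and the two-cell-like cells were pooled over libraries. In these comparisons a gene needed at least 200 counts over all kept cells. The calling step was tested on simulated counts with 3-fold changes in genes of at least 5000 counts in every library. That test did not cover folds near 1.5 or genes with fewer counts, among them Clk2, Clk3 and Clk4. Thinning drew UMIs without replacement, and 0 kept cells fell below 5000. Folds of lists are medians over genes of the geometric mean over libraries. The rule for named genes took all 6 members, the 2 highest and 2 lowest genes of each list, of which the text names those that carry a result, and the 3 genes most like each member. The members and lists were chosen with earlier results of these data known. The planned edgeR test of Srrm2 hKO against WT was not made, since no library number is tied to a sample. Cells were not clustered and doublets were not called.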

Additional observations from a re-analysis of the deposited data

How the results depend on the processing

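No paired analysis was possible because no library number is tied to a labelled sample. The counts of members past 1.5-fold were recomputed with other folds, scalings, cells and depths, and with each library left out. Of 85 such values, 72 were within 1.5 times the count in the report. Where that count was 0, the 2-fold setting could only give 0 again, so part of this tally was fixed in advance. With the smaller fold tried in place of 1.5-fold the count was 3 between libraries (Clk1, Clk2 and Srpk1) and 3 in low-depth high-mitochondrial barcodes (Clk1, Clk4 and Srpk2). It was 2 in low-depth low-mitochondrial barcodes (Clk1 and Clk4), 1 in keratin-high cells (Clk3) and 1 between the Malat1 tertiles (Clk2). With 2-fold it was 0 between libraries, 1 in low-depth high-mitochondrial barcodes (Clk4, since Clk1 was 1.996-fold in library 2) and 2 in two-cell-like cells (Clk3 and Srpk1). The shares of all genes past the smaller fold and past 2-fold were not computed, so these counts have no background beside them. Scaling by the median gene gave 3 in two-cell-like cells (without Clk2 and Clk4), the outer 20% of cells 1 between the Malat1 groups (Clk2), and a depth limit set by the median of kept cells 1 in low-depth low-mitochondrial barcodes (Clk4). Leaving out a library gave 0 to 1 between libraries, with 0 without library 1, and 0 to 1 in low-depth low-mitochondrial barcodes. Of 62 other values, 41 moved: the 24 shares of cells with a UMI at 10000 UMIs, by their construction, and 17 shares of genes past 1.5-fold under a lower or no filter on counts. The Malat1 and mitochondrial bin comparisons and the leaving out of keratin-high cells were chosen after seeing the data. Without a filter on counts, the share of genes past 1.5-fold between libraries was 70.4%. Few counts limit the two-cell-like cells, of which there were 16, and the barcodes above 40% mitochondrial UMIs. Each library is 1 culture, so variation between cultures of a group was not measured.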
